A study of Mus musculus with 8 samples.

Results

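The interleukin-1 (IL-1) family and its receptors were followed here in activated mouse CD4 T cells with and without Bcl6. The genes were chosen by name, from the ligands Il1a, Il1b and Il18, the antagonist Il1rn and the receptor chains Il1r1, Il1r2, Il1rap, Il1rl1, Il18r1 and Il18rap, with the genotype values of these arrays already known. For 8 of these 10 genes the platform annotation used here gave a transcript cluster (the set of array probes that reads a gene) with a single gene symbol, 1 cluster each, out of 19938 genes tested. Il1r1 and Il1rl1 were not analysed here. The measured values that entered the choice were the mean signal over the arrays, which picks the cluster of a gene, and the genotype difference, so the wild-type against knockout values below are a description and nothing is supported with them.

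IL-1 alpha and IL-1 beta bind the same receptor, formed by Il1r1 and the accessory chain Il1rap. The antagonist encoded by Il1rn occupies that receptor without signalling, and Il1r2 encodes a decoy receptor that lacks the signalling domain. IL-18 uses the related pair Il18r1 and Il18rap. In T cells these receptors add to the signals of antigen and costimulation, and they are known for promoting Th17 (IL-1), Th1 (IL-18) and Th2 or regulatory (IL-33, through Il1rl1) functions, whereas the ligands are best known as products of myeloid and epithelial cells.

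The study hybridised total RNA of CD4 T cells, labelled naive, in 4 wild-type samples and 4 samples with a conditional, T cell-specific Bcl6-/- genotype (called Bcl6 cKO here) to 1 whole-transcript array each. All 8 samples had been stimulated with antibodies to CD3 and CD28 for 24 hours, so no unstimulated cells were compared, and both groups carry the tag Tf0. Not given in the sources used here are the Cre line, deleted exons, strain, age and sex. Nor do the labels say that each sample is 1 mouse, so the spread behind every p-value is that of these samples and may be technical. The comparison asks which genes Bcl6, a transcriptional repressor known for directing follicular helper T cells, controls in these cells.

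The sequences before the starts of Il1a and Il1b are shown because these neighbouring cytokine genes, next to each other on chromosome 2 in RefSeq gene order, gave different values on the same arrays. Both are the 250 bases upstream of the annotated start, from RefSeq (GRCm38.p6), minus strand, Il1a at chr2:129309973-129310222 and Il1b at chr2:129371140-129371389. Capitals mark matches to the motifs searched.
Il1a: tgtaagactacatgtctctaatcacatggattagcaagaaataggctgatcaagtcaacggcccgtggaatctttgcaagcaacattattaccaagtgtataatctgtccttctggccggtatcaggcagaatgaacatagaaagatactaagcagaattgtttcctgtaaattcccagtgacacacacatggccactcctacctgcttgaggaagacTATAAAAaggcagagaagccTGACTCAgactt
Il1b: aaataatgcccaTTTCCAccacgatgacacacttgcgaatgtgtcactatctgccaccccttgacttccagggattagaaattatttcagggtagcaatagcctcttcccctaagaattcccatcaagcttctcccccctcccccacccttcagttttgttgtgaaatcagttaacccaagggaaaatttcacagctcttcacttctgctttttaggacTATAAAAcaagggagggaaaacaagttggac
Both windows hold the TATA-box string TATAAAA, starting 32 bases before the start of Il1a (position -32) and at position -31 of Il1b, which 4.98% of all 32851 annotated windows of this length hold on either strand. Il1a also has TGANTCA, the AP-1 motif, at position -12 (6.75% of windows), and Il1b has TGGAAA, a core bound by NFAT factors, at position -238 (18.6% of windows).

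Of the other strings searched on both strands, TTCCTNGAA, the core of sites known to be bound by Bcl6, was in 1.31% of all windows and in 1 of the 12 windows of the 8 genes, that of Il1r2 at position -111. Every such match is also a match to the wider TTCNNNGAA, the motif of STAT factors, which 7.02% of all windows held; besides Il1r2 it was found in 1 window of Il18r1. The NF-kB-like string GGNNTTTCC (4.93% of windows) was found before Il18rap and before 1 of the 3 starts of Il1rn. These matches describe letters in a window and show no binding.

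Across the series the median log2 signal of an array lay between 7.57 and 7.64. The transcript cluster of Bcl6 itself read 8.37 ± 0.20 in wild type and 8.74 ± 0.27 in Bcl6 cKO (log2 signal, mean ± SD, n = 4 each; limma adjusted p = 0.337), so it was not lower in the samples labelled knockout, and since the deleted part is not stated it checks nothing about the labels. The T cell genes Cd3e and Cd4 read 13.19 and 12.88 in wild type and 13.12 and 12.79 in Bcl6 cKO. Signal of Kdm5d, Uty and Eif2s3y, all on the Y chromosome, was high on 3 wild-type arrays and on Bcl6 cKO replicate 1, and low, with Xist high, on wild-type replicate 4 and on 3 Bcl6 cKO arrays, called Y-high and Y-low arrays here, so sex was unequal between the genotypes. On the arrays where they were low, these 3 genes read between 4.58 and 5.83, called the silent range below, which serves as a rough guide to signal without transcript, since other probes can have another background.

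Il1a (Entrez ID 16175), the gene of IL-1 alpha, a cytokine that acts both as a secreted alarm signal and while still bound to the cell, was the 1 gene of the 8 that stood apart by genotype. Its log2 signal was 5.54, 5.16, 5.18 and 5.56 on wild-type arrays 1 to 4 and 6.06, 6.74, 6.93 and 7.23 on Bcl6 cKO arrays 1 to 4. The groups did not overlap. All 4 wild-type values lay inside the silent range and all 4 Bcl6 cKO values above it. Bcl6 cKO replicate 1 was the lowest of the knockout arrays. The means were 5.36 ± 0.22 and 6.74 ± 0.50 (SD, n = 4 each), a log2 difference of 1.38 with a 95% interval of 0.92 to 1.84. In limma over all genes its adjusted p was 0.0358. Its pooled SD within groups was 0.384, against a median of 0.093 over all genes, and 99.2% of genes had a smaller one. Since the wild-type signal was not shown to stand above background, no fold is given.

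That call was already known when the genes were chosen. It is 1 of 8 genes past the threshold (adjusted p of 0.05), where 0.221% of all genes passed in either direction and 0.105% passed as higher in Bcl6 cKO. Groups did not overlap for this gene alone among the 8, against 5.97% of all genes.

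With sex added to the fit the difference of Il1a was 1.09 and its adjusted p 0.0887 in limma. With trended and robust variance moderation the adjusted p was 0.0921. The adjusted p stayed under the threshold in only 1 of the 8 fits that left out an array, the fit without Bcl6 cKO replicate 1 (0.00267, difference 1.61). Leaving out wild-type replicate 1, 2, 3 or 4 gave adjusted p-values of 0.0668, 0.0954, 0.0989 and 0.1, and leaving out Bcl6 cKO replicate 2, 3 or 4 gave 0.0764, 0.127 and 0.0979, with differences between 1.22 and 1.45. On the Y-high arrays (1 Bcl6 cKO, 3 wild type) the difference was 0.77, and on the Y-low arrays (3 Bcl6 cKO, 1 wild type) it was 1.41. The lone wild-type array of the Y-low comparisons, replicate 4, stood apart from the other 7: it had the lowest array weight in limma (0.367, the next being 0.759), and the interquartile range of its deviations was 0.18, against 0.085 to 0.115 on the others. Every Y-low difference given here, for Il1rap and Il18r1 too, rests on it. The difference between these values did not pass a genotype-by-sex term in limma (adjusted p = 0.428), in which the lone array of each kind is assumed to vary like the rest.

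**Figure D1:**
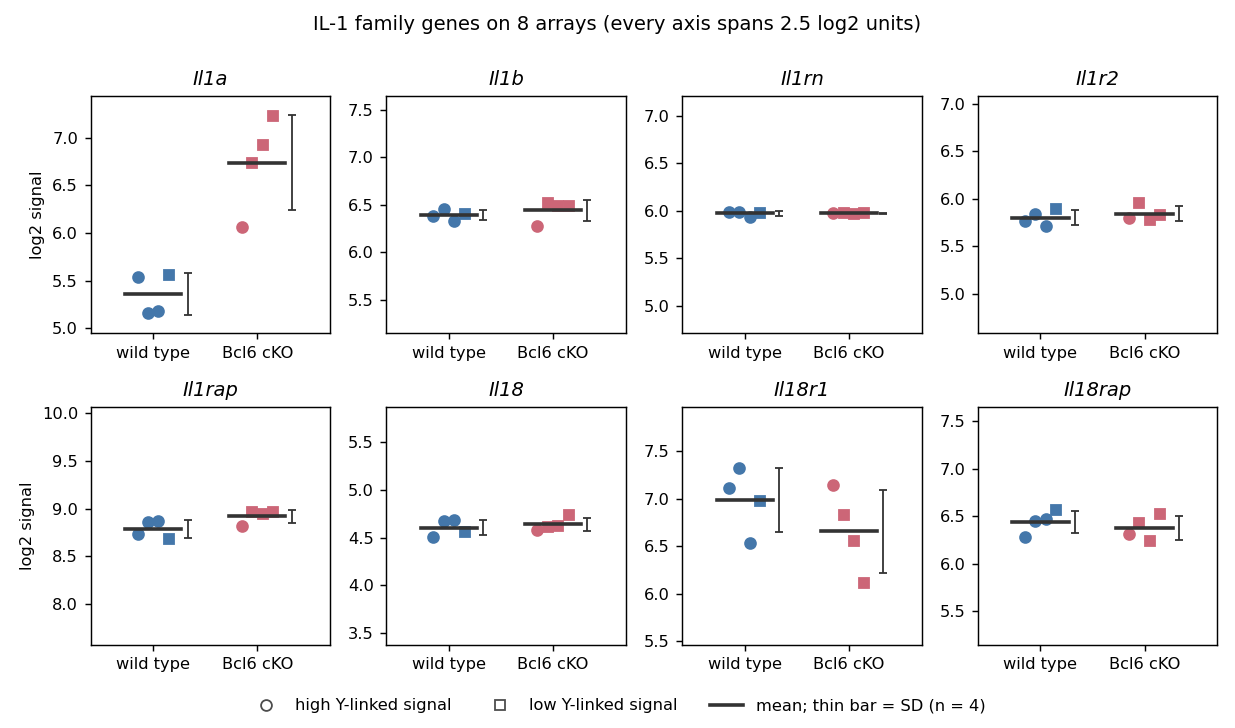
Log2 signal of the 8 measured genes on the 8 arrays; circles are Y-high and squares Y-low arrays, thick lines are group means and thin bars the SD (n = 4), and each vertical axis spans the same range. Il1a is the panel with separate groups, at 5.16 to 5.56 in wild type and 6.06 to 7.23 in Bcl6 cKO, while Il18r1 has the widest spread within wild type.

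**Figure D2:**
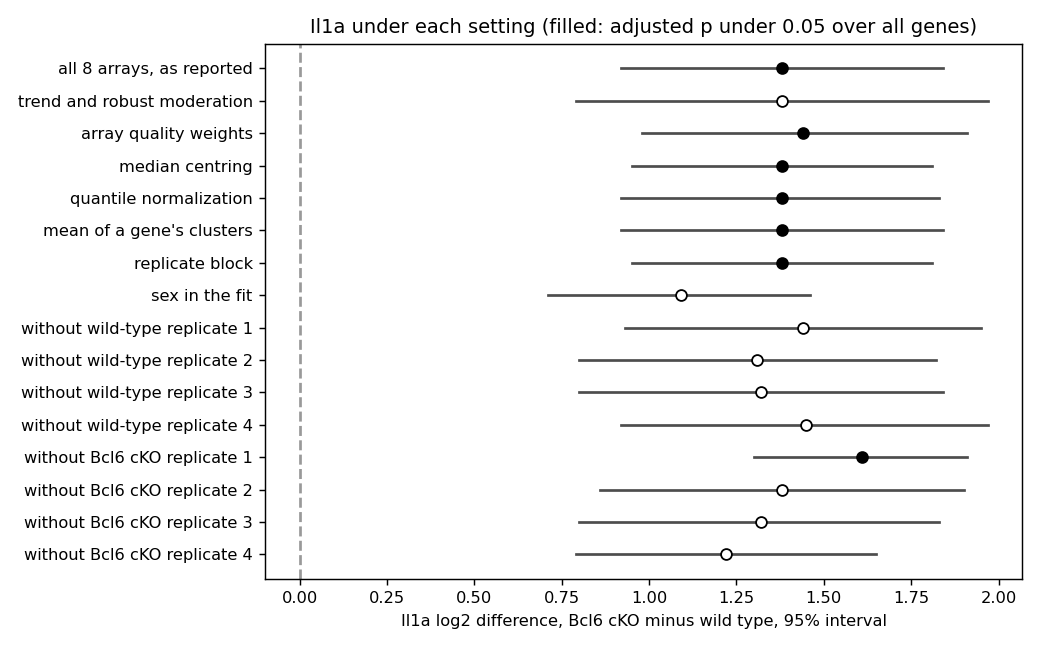
Log2 difference of Il1a, Bcl6 cKO minus wild type, with its 95% interval under each setting that tested it; filled points passed an adjusted p of 0.05 over all genes. The difference stays between 1.09 and 1.61, and 6 of the 15 other settings passed.

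The other ligand of the same receptor did not stand apart. Il1b (Entrez ID 16176), which encodes the inflammasome-processed cytokine IL-1 beta, read 6.38, 6.46, 6.33 and 6.40 in wild type and 6.28, 6.52, 6.49 and 6.49 in Bcl6 cKO. The groups overlapped, and Bcl6 cKO replicate 1 was the lowest of all 8 arrays. The log2 difference was 0.05, with a 95% interval of -0.086 to 0.19 (limma adjusted p = 0.847). That interval lies wholly below that of Il1a, its neighbour in the genome.

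Il1rn (Entrez ID 16181), the gene of the receptor antagonist, was the flattest of the 8. It read 5.99, 5.99, 5.93 and 5.97 in wild type and 5.98, 5.97, 5.96 and 5.97 in Bcl6 cKO. The 8 arrays spanned 5.93 to 5.99, above the upper end of the silent range. Its 95% interval ran from -0.097 to 0.097 (limma adjusted p = 1), and only 0.226% of all genes had a smaller SD within groups.

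Il18 (Entrez ID 16173), the gene of the interferon-gamma-inducing cytokine IL-18, read 4.51, 4.67, 4.68 and 4.56 in wild type and 4.58, 4.61, 4.62 and 4.74 in Bcl6 cKO. All 8 values were at or below the lower part of the silent range, so no Il18 transcript was shown in either genotype. The log2 difference was 0.03 (95% interval -0.098 to 0.16, limma adjusted p = 0.911).

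Among the receptor genes, Il1rap (Entrez ID 16180), the accessory chain that IL-1 and IL-33 receptors need to signal, stood clear of the silent range on all arrays. It read 8.73, 8.86, 8.87 and 8.68 in wild type and 8.82, 8.96, 8.94 and 8.96 in Bcl6 cKO. Bcl6 cKO replicates 2, 3 and 4 were above every wild-type array, and replicate 1 lay among them. The log2 difference was 0.14, with an unadjusted p of 0.0494 and an adjusted p of 0.458 in limma. It was 0.00 on the Y-high arrays and 0.27 on the Y-low arrays, where wild-type replicate 4 is the lone wild-type array. As for Il1a, the genotype-by-sex term in limma did not pass the threshold.

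Il1rap lies on chromosome 16, which also carries Bcl6. In RefSeq gene order 8 tested genes separate them, of which 1 passed the threshold (Lpp, next to Bcl6, with a log2 difference of 0.99 and a limma adjusted p of 0.00564). The genes on either side of Il1rap were Tmem207 (log2 difference -0.05, adjusted p = 0.86) and Gmnc (-0.07, adjusted p = 0.759).

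The decoy receptor gene Il1r2 (Entrez ID 16178) read 5.77, 5.84, 5.71 and 5.89 in wild type and 5.80, 5.96, 5.78 and 5.83 in Bcl6 cKO. These values straddle the upper end of the silent range and overlap between groups. The log2 difference was 0.04 (95% interval -0.093 to 0.17, limma adjusted p = 0.885).

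Il18r1 (Entrez ID 16182), the ligand-binding chain for IL-18 and a gene known to be raised in Th1 cells, varied more between arrays of 1 genotype than the other receptor genes. It read 7.11, 7.32, 6.53 and 6.97 in wild type and 7.14, 6.83, 6.55 and 6.11 in Bcl6 cKO. The lowest value was Bcl6 cKO replicate 4 and the groups overlapped broadly. The log2 difference was -0.32 with a 95% interval of -0.79 to 0.14 (limma adjusted p = 0.643), so a difference inside that interval was not resolved with 4 arrays a group. Its pooled SD within groups was 0.389, against a median of 0.093 over all genes, and 99.2% of genes had a smaller one. The difference was 0.15 on the Y-high arrays and -0.47 on the Y-low arrays (genotype-by-sex term in limma, adjusted p = 0.596).

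Il18rap (Entrez ID 16174), the signalling partner of Il18r1, read 6.28, 6.45, 6.47 and 6.56 in wild type and 6.31, 6.43, 6.24 and 6.52 in Bcl6 cKO. The groups overlapped, with a log2 difference of -0.06 (95% interval -0.24 to 0.11, limma adjusted p = 0.845). Il1r2, Il1r1, Il1rl2, Il1rl1, Il18r1 and Il18rap follow one another on chromosome 1 in RefSeq gene order. None of the 4 tested here passed the threshold. At the edges of this run, Map4k4 before it had a log2 difference of -0.22 (adjusted p = 0.135) and Slc9a4 after it -0.01 (adjusted p = 0.978).

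The remaining neighbours did not pass either. Beside the ligand genes, Ckap2l had a log2 difference of 0.40 (limma adjusted p = 0.424) and the antisense transcript Il1bos -0.09 (0.7). Il1f10 and Psd4, on either side of Il1rn, had 0.03 (0.919) and -0.11 (0.486), and Bco2 and Tex12, on either side of Il18, had -0.08 (0.621) and 0.00 (0.992).

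**Figure D3:**
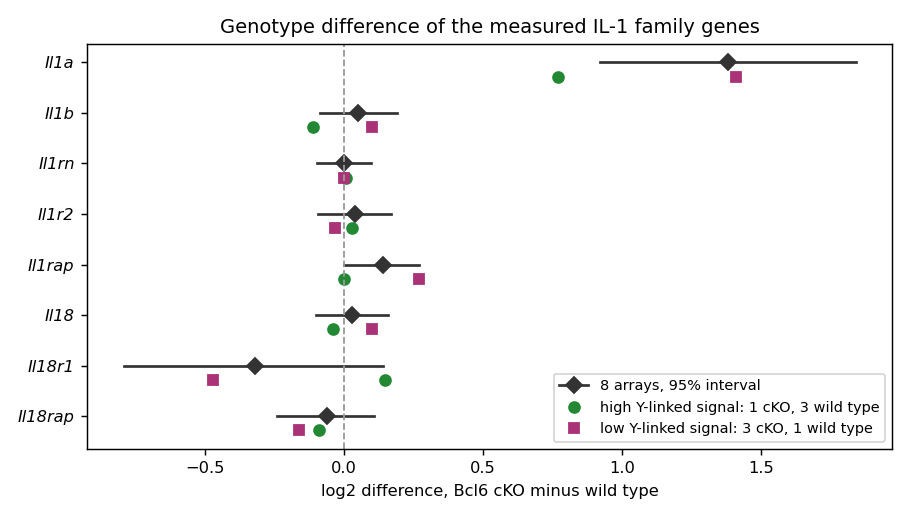
Log2 difference, Bcl6 cKO minus wild type, of each measured gene; diamonds are all 8 arrays with the 95% interval, and the circle and square below each are the differences within the Y-high and the Y-low arrays, with no test. Il1a lies at 1.38, and the intervals of the other 7 lie between -0.79 and 0.27.

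Over the 8 arrays Il1a was followed most closely by Nrp1, which encodes a receptor of semaphorins and growth factors (Pearson r = 0.985). Next were Hbegf, an epidermal growth factor receptor ligand (0.976), Akr7a5, an aldo-keto reductase (0.96), the carboxypeptidase Cpd (0.954) and the selenoprotein gene Selenon (0.948). These are a description over 8 arrays that share the genotype contrast, and the 5 genes are the highest of all named genes. For deviations from the genotype means, r was 0.917 for Nrp1, 0.903 for Hbegf, 0.84 for Akr7a5, 0.745 for Cpd and 0.752 for Selenon. The r that picked these genes includes those deviations, so the choice favours high values here and they are no separate check. Nrp1 read 7.29, 7.03, 6.91 and 7.21 in wild type and 7.54, 8.05, 8.03 and 8.08 in Bcl6 cKO, lowest among the knockout arrays on replicate 1, as was Il1a. Of the other IL-1 family genes Il1rap had an r of 0.67 with Il1a over the 8 arrays and 0.16 for deviations from the genotype means. For Il1b these were 0.58 and 0.70, and for Il18r1 both were -0.65.

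The wider pathway was read through 6 lists with 92 distinct measured genes. None passed the threshold in limma, 47 were above and 45 below wild type, and 19 had an unadjusted p under 0.05, where 10.9% of all genes did. Groups did not overlap for 9 of the 92, against 5.97% of all genes. The median log2 difference was 0.00, as over all genes.

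Of 7 other measured family members (IL-33, IL-18 binding protein and related receptors) 3 lay above wild type and 4 below, and their median log2 difference was -0.07. Il1rl2, the receptor of the IL-36 cytokines, read 8.30, 8.58, 8.52 and 8.35 in wild type and 8.24, 7.70, 8.31 and 7.77 in Bcl6 cKO. The groups overlapped at 1 pair of arrays, and the difference of -0.43 did not pass (limma adjusted p = 0.261). Sigirr, an inhibitory receptor of the family, had separate groups and a difference of -0.16 (adjusted p = 0.295).

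Of 19 genes of cytokine processing and release 13 were below wild type (median -0.08), and 10 had an unadjusted p under 0.05, against 10.9% of all genes. The 2 with the smallest p belong to the calpain system, the proteases known to cleave the IL-1 alpha precursor. Cast, which encodes their inhibitor calpastatin, read from 10.97 to 11.05 on the wild-type arrays and 10.82, 10.60, 10.63 and 10.53 in Bcl6 cKO. The groups were separate, and the difference of -0.35 missed the threshold (limma adjusted p = 0.058). Cast passed with trended and robust moderation (0.0295), with array weights (0.0481), with the filter on dim genes (0.0499) and without Bcl6 cKO replicate 1 (0.0138). The protease subunit gene Capn2 also had separate groups, at 10.15 ± 0.13 and 9.90 ± 0.07 (SD, n = 4), a difference of -0.25 (limma adjusted p = 0.206).

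The following were picked after their values were seen. The other calpain subunit genes Capn1 and Capns1 both had differences of -0.12 (adjusted p = 0.342 and 0.451), with separate groups for Capn1 and overlapping groups for Capns1. The inflammatory caspase gene Casp4 had a difference of 0.74 with overlapping groups (adjusted p = 0.255), and Casp1, which matures IL-1 beta and IL-18, read 5.67 ± 0.21 and 5.78 ± 0.26 (SD, n = 4; difference 0.10, limma adjusted p = 0.859), near the upper end of the silent range.

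Receptor-proximal signalling genes (the adaptor Myd88, the Irak kinases, Traf6 and partners) had a median difference of 0.00, with 8 of 15 above wild type, and their differences ran from -0.13 to 0.16. The smallest unadjusted p-values were those of the inhibitory adaptor gene Tollip (-0.10, limma adjusted p = 0.461) and the ubiquitin-conjugating enzyme gene Ube2n (0.10). No gene of this list reached an unadjusted p under 0.05.

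In the NF-kappaB and MAP kinase list 8 of 19 were above wild type, with a median of -0.01. Nfkbiz, an atypical nuclear inhibitor protein that IL-1 signals are known to induce, read 10.25, 10.29, 10.26 and 10.21 in wild type and 10.04, 9.81, 9.78 and 9.68 in Bcl6 cKO. The groups were separate and Bcl6 cKO replicate 1 was nearest to wild type. The difference of -0.42 missed the threshold (limma adjusted p = 0.0536) and passed under the same 4 alternatives as Cast, with adjusted p-values of 0.0282, 0.0349, 0.048 and 0.00988. The kinase gene Map2k4 had a difference of 0.20 (adjusted p = 0.191).

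Of 20 genes listed as responding to IL-1, IL-18 or IL-33, not all of them in T cells, 14 were above wild type. Their median was 0.12 and no unadjusted p was under 0.05. The effector cytokine gene Ifng read 7.07, 7.75, 7.17 and 7.36 in wild type and 7.24, 9.92, 7.55 and 8.40 in Bcl6 cKO. Bcl6 cKO replicate 2 alone set most of the difference of 0.94, and the groups overlapped (limma adjusted p = 0.518). Il13 followed the same array, at 8.40 on Bcl6 cKO replicate 2 and between 7.23 and 7.80 on the other 7 (difference 0.41, adjusted p = 0.502). Il1a was not highest on that array.

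Of 12 helper lineage genes that go with the receptors, 8 were above wild type (median 0.10). Il12rb1, a receptor chain of interleukin-12, had a difference of 0.30 (limma adjusted p = 0.181, and 0.0487 without Bcl6 cKO replicate 1). Foxp3, the regulatory T cell factor, had separate groups at 9.72 ± 0.13 and 9.23 ± 0.32 (SD, n = 4), a difference of -0.50 (limma adjusted p = 0.2).

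**Figure D4:**
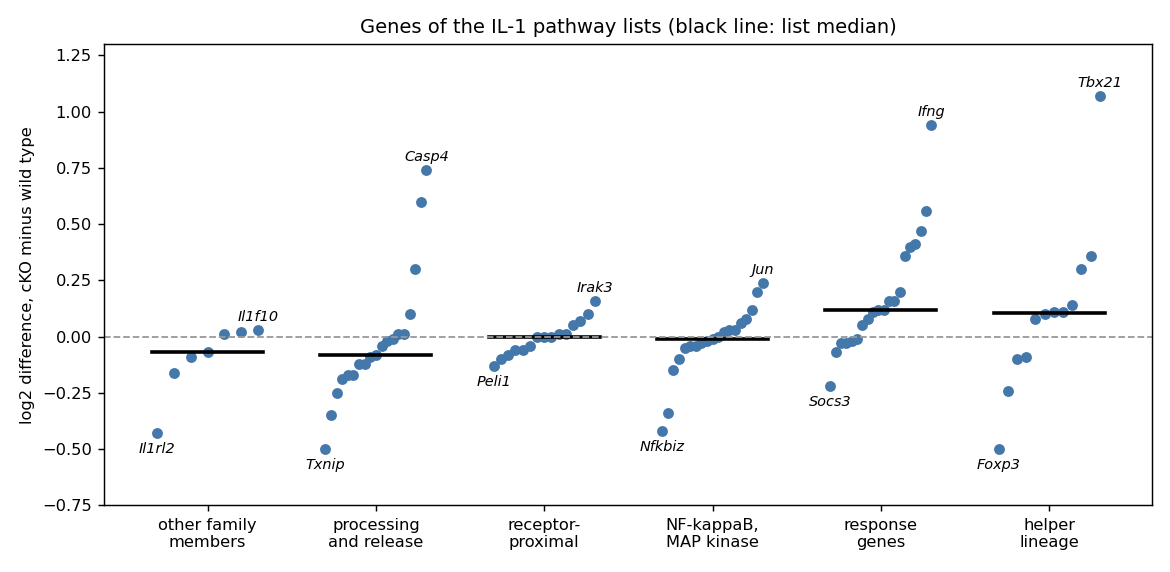
Log2 difference, Bcl6 cKO minus wild type, of each measured gene in the 6 pathway lists, sorted within a list; black lines are list medians and the lowest and highest gene of each list are named. The medians lie between -0.08 and 0.12, and the lists reach from -0.50 to 1.07 with no gene past the threshold.

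Since the ligands are best known from other cells, marker lists were read on the same arrays. In bulk RNA fewer cells of a type and less RNA per cell cannot be told apart. The mean of 12 macrophage and dendritic cell genes ran from 6.42 to 6.52 in wild type and from 6.38 to 6.67 in Bcl6 cKO, and 8 of the 12 were above wild type. Its defining gene Lyz2 was highest on Bcl6 cKO replicate 2 (7.67) and lowest of all arrays on Bcl6 cKO replicate 3 (5.82), where Il1a read 6.93. Adgre1 lay between 5.38 and 5.64 throughout, inside the silent range. The group means of every other gene of this list lay above that range. Among them, Cd68 read 8.23 in wild type and 8.20 in Bcl6 cKO, and Tyrobp 7.08 and 7.10. The mean of 8 mast cell and basophil genes ran from 5.89 to 6.05 and from 5.96 to 6.35, with 7 of 8 above wild type and the highest value again on Bcl6 cKO replicate 2. The mean of 9 neutrophil genes ran from 5.86 to 6.04 and from 5.96 to 6.05, with all 9 above wild type by 0.02 to 0.24 and none past the threshold. Their part in the Il1a difference was not tested.

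Lists of T cell state were read in the same way. The mean of 7 proliferation genes ran from 9.65 to 10.19 in wild type and from 10.01 to 10.50 in Bcl6 cKO, highest on replicates 3 and 4 (10.36 and 10.50), the arrays with the highest Il1a. The mean of 5 genes of the naive state ran from 11.30 to 11.92 and from 10.96 to 11.43, lowest on the same arrays (10.96 and 11.03). Elsewhere the order differed: wild-type replicate 2, with the lowest Il1a (5.16), had the highest proliferation mean of its group (10.19), wild-type replicate 4, with the highest wild-type Il1a (5.56), had the lowest (9.65) and the highest naive mean (11.92), and Bcl6 cKO replicate 2 had more Il1a than replicate 1 but a lower proliferation mean (10.01 and 10.06). Over the 8 arrays all 7 and all 5 differed in these directions and none passed in limma. An unadjusted p under 0.05 was reached by 3 of each, against 10.9% of all genes. On the Y-high arrays, with 1 Bcl6 cKO array, the 7 differences ran from -0.04 to 0.33 and the 5 from -0.43 to 0.37. On the Y-low arrays, with wild-type replicate 4 as the lone wild-type array, they ran from 0.11 to 1.20 and from -1.32 to -0.11. The mean of 8 regulatory T cell genes did not overlap between groups, at 10.10 to 10.29 and 9.85 to 9.99. Gpr83 had the largest difference of the list (-1.20, limma adjusted p = 0.0665), against -0.27 for the mean. Of the 8 genes, 7 were below wild type and Il2ra was above (0.11). Groups did not overlap for 2 of the 8, Gpr83 and Foxp3, against 5.97% of all genes. These 2 also had an unadjusted p under 0.05, against 10.9% of all genes. Activation genes ran from 12.19 to 12.38 and from 12.27 to 12.41, with 5 of 8 above wild type. Whether these states have a part in the Il1a signal was not tested.

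**Figure D5:**
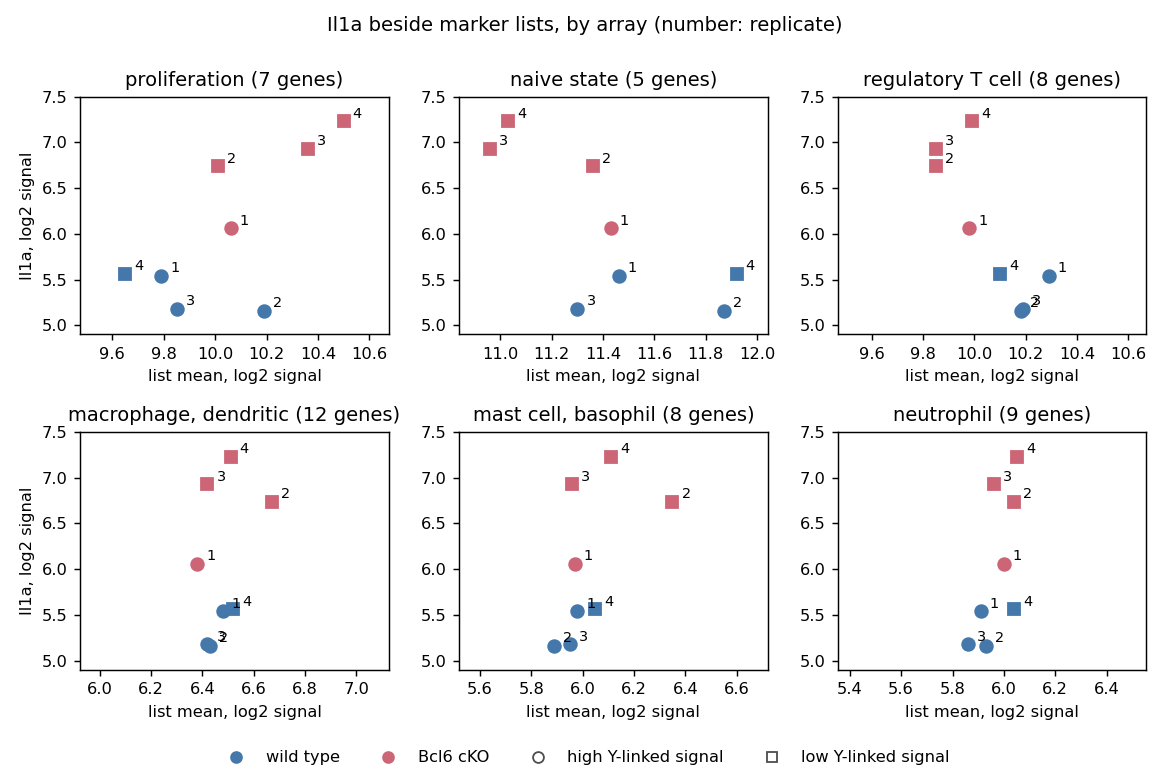
Il1a log2 signal (vertical) against the mean log2 signal of 6 marker lists (horizontal, every axis of the same width), 1 point per array, numbered by replicate, blue wild type and red Bcl6 cKO, circles for Y-high and squares for Y-low arrays. The knockout arrays with the most Il1a, replicates 3 and 4, have the highest proliferation and lowest naive means, an order that the wild-type arrays do not follow.

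The mean of 8 T cell genes ran from 12.61 to 12.65 in wild type and from 12.44 to 12.59 in Bcl6 cKO, a narrow gap. Their differences ran from -0.17 to 0.00. Groups did not overlap for 2 of the 8, Cd3d and Cd3e, against 5.97% of all genes. The mean of the CD8 chains ran from 8.91 to 9.13 and from 8.66 to 8.91, but the chains were unlike. Cd8b1 had separate groups at 11.04 and 10.57 (difference -0.47, limma adjusted p = 0.0541). Cd8a overlapped at 6.99 and 6.97 (-0.02, adjusted p = 0.951). The mean of 7 B cell genes ran from 6.24 to 6.31 and from 6.24 to 6.36, and that of 5 natural killer cell genes from 6.02 to 6.53 and from 6.11 to 6.45. No gene of these lists passed the threshold in limma.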

How the data were processed

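The authors deposited log2 signal values for every transcript cluster on every array. Per the submitters' processing notes these come from RMA and Partek, with versions and settings not given in the sources used here. RMA corrects background, equalises the arrays' distributions and sums up each cluster's probes; differences of dim genes come out compressed. Labelling started from 100 ng of total RNA, per the labels' protocols. Arrays have no read depth, so their number limits the precision.

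Of 35556 clusters, 21789 have 1 gene symbol in the platform annotation, 1621 several and 12146 none. For each gene the cluster with the highest mean over the arrays was kept (19938 genes). The genotype test was limma's lmFit and eBayes (version 3.58.1, R 4.3.3) without covariate or filter. Benjamini-Hochberg adjustment covered every gene tested, with a threshold of 0.05. The fit was tested on simulated data. List genes were matched by symbol or by Entrez ID through RefSeq (GRCm38.p6), which also gave gene order and promoters; 8 of 8 genes had promoter entries, 12 in all. Unmatched genes were not analysed here.

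The genes followed, the lists and the alternatives were chosen with earlier results of these data known. Beside the 8 genes, the text names the 2 genes of each pathway list with the smallest p, the 5 genes most correlated with Il1a (leaving out predicted models and clones, pseudogenes, small RNAs, antigen receptor segments, and receptors of the olfactory and vomeronasal families), nearest tested neighbours, Bcl6 and defining markers. Alternatives were other variance moderation, array weights, scalings, a filter on dim genes, the mean of clusters, a replicate block, sex read from Y-linked genes, and leaving out each array. The genotype-by-sex term was added, and further list genes were named, after the data were seen.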

Additional observations from a re-analysis of the deposited data

Results flagged for a closer look

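Of 50 groups of 4 arrays checked (the 8 genes and 17 list means in each genotype), 2 had an array far from the other 3. Both were Bcl6 cKO replicate 1: Il1b read 6.28 there and 6.49 to 6.52 on the other knockout arrays, and Il1rap read 8.82 there and 8.94 to 8.96 on the others. Chance flags about 5% of such groups. That array is also the knockout array with high Y-linked signal and with the lowest Il1a.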

How the results depend on the processing

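Of the 8 genes, 1 was called higher and none lower. The count of higher genes fell to 0 with trended and robust moderation, with sex in the fit and with the filter at the 30th percentile of mean signal, which left Il18r1 and Il1rap as the 2 genes tested. Leaving out 1 array gave counts from 0 to 1. The other 7 genes passed in none of their alternatives, and none lower was called under any. Of the pathway genes, 2 passed with trended and robust moderation, with array weights and with the filter, and leaving out 1 array gave 0 to 3. Over all genes 44 passed, against 91 with trended and robust moderation, 80 with array weights, 67 with the filter, 10 with sex in the fit, and 11 to 139 without 1 array. With the replicate block Il1a kept its call (log2 difference 1.38, limma adjusted p = 0.0441). Same-numbered arrays correlated at 0.073, 0.206, 0.203 and 0.205 in their deviations from the genotype means, and other pairs at -0.236 to 0.186. Wild-type replicates 2, 3 and 4 correlated best with their own number and replicate 1 with Bcl6 cKO replicate 3 (0.178). Between the genotypes, odd-numbered arrays correlated at 0.073 to 0.203 and even-numbered arrays at -0.05 to 0.206. Odd with even numbers gave -0.236 to 0.022. That is a hint of pairing by number or of a split into odd and even numbers, which these values do not tell apart. The labels state neither, and not every same-numbered pair exceeded 0.1, so the arrays were compared unpaired. A split of this kind was not tested. The cause of these shifts was not tested, except that the filter did not test Il1a. The called difference of Il1a kept its direction wherever it was tested. Signal near the silent range limits what can be said of Il18, Il1r2 and Il1rn.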
